A study of Rattus norvegicus with 4 samples.

Results

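The genes described here make or spend nitric oxide, make hydrogen peroxide or superoxide, or bind bacterial siderophores at the gut surface: Nos2, Duox1, Duox2, Duoxa2, Nox1, Cybb, Lcn2, Arg1 and Arg2. They were chosen by name, 9 genes among the 35651 genes and unnamed transcripts of a rat oligonucleotide array, and every gene probe whose name equals one of the 9 was taken. A probe was found for 8 of the 9, with 1 probe each. No probe carried the name of Duoxa2 or its synonym, so Duoxa2 was not analysed here. The compost group was 2 male Wistar rats, an outbred stock, whose tap water held 1% (v/v) of a heated watery dilution of fermented compost. They drank it for 12 weeks from 3 weeks of age, while the control group was 2 male Wistar rats of the same age on tap water alone. The tissue of all 4 rats was small intestine without Peyer's patches, the labels do not say which segment, and RNA from each rat was hybridised to 1 one-colour (Cy3) array.

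Nitric oxide is made from arginine by nitric oxide synthases, and the inducible enzyme encoded by Nos2 is switched on in epithelium and phagocytes by interferon gamma, tumour necrosis factor and bacterial products. Arginases, encoded by Arg1 and Arg2, split the same arginine into ornithine and urea. The dual oxidases and Nox1 sit in the epithelial membrane and release hydrogen peroxide or superoxide toward the lumen, whereas Cybb encodes the catalytic subunit of the phagocyte oxidase. Lipocalin 2, the product of Lcn2, captures the siderophore enterobactin and so keeps iron from bacteria.

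Promoter windows from RefSeq (build GRCr8, 250 bases before to 50 after the gene start) were found for 5 of the 9 genes: Duox1, Duox2, Nox1, Cybb and Lcn2. None was found for Nos2, Arg1 or Arg2, so the nitric oxide arm has no window. One window is shown for each other arm of the defence: the epithelial peroxide source Duox2, the phagocyte oxidase Cybb and the siderophore binder Lcn2. The motifs searched for can thus be read beside the values. Capitals mark every match, on either strand, to the NF-kappaB consensus, the interferon gamma-activated site TTCNNNGAA, or TGANTCA, where N is any base. They also mark every match to the GAAA pair (GAAA, any 2 bases, GAAA) found in interferon response elements, or to TATAAA. The windows lie at chr3:129698704-129699003 (minus strand), chrX:16065016-16065315 (minus strand) and chr3:36081731-36082030 (minus strand).
Duox2: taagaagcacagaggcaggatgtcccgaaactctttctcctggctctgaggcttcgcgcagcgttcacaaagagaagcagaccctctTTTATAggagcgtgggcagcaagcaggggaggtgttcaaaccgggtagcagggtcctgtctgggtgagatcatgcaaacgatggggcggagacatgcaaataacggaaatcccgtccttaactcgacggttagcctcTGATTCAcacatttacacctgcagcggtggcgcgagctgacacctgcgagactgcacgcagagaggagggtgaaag
Cybb: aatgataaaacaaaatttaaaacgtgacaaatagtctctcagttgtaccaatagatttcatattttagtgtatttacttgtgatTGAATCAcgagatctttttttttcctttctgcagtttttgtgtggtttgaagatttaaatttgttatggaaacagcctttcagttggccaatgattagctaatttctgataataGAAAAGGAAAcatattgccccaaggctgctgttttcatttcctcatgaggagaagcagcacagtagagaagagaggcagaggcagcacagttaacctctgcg
Lcn2: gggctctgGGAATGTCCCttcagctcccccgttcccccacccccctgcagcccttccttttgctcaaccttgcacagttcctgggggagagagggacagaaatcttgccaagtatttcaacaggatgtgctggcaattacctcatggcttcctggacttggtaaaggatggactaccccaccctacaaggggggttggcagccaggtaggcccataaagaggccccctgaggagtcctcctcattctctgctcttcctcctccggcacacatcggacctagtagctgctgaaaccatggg
The Duox2 window held TGANTCA once, starting 26 bases before the gene start, and TATAAA once on the opposite strand. That of Cybb held TGANTCA once and the GAAA pair once, and that of Lcn2 the NF-kappaB consensus once, on the opposite strand, starting 242 bases before the gene start. Nox1, not shown, also held the NF-kappaB consensus once, and Duox1 held none of the 5. None of these 5 windows held TTCNNNGAA. Among 33469 rat promoter windows of the same length, 7.33% held TGANTCA, 3.92% the GAAA pair, 14.2% TATAAA, 8.87% TTCNNNGAA and 4.18% the NF-kappaB consensus. A match says only that these letters stand in the window.

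All 4 arrays lay on 1 slide, the compost arrays at positions 3 and 4 and the control arrays at positions 1 and 2, so position and group cannot be told apart. Between 66.5% and 71.0% of the 43379 gene spots were well above background by the scanner software's flag. Intensities are given after scaling every array to a common 75th percentile, in arbitrary units, and log2 differences are compost minus control. In limma's test of 28415 probes, 0 had an adjusted p under 0.05 (0% higher and 0% lower), and 913 (3.21%) had an unadjusted p under 0.05, 1.41% of all probes higher and 1.81% lower. Each of the 8 member probes had an adjusted p of 0.9997 by limma, and 1 of the 8 had an unadjusted p under 0.05. That was Nos2, which entered the test through the compost arrays alone, so this count supports nothing about the members. With 2 arrays in each group a two-sided exact permutation test of a single value cannot go below p = 0.333. A scaled intensity cannot tell fewer cells of a type from less RNA in each cell, and levels of different probes were not set against each other.

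Nos2 had the largest measured difference of the 8 members, over control values at or near background. Its probe (transcript NM_012611) is printed 10 times on the array. The scaled intensity was 53.4 and 70.3 on the compost arrays, against 5.08 and 19.1 on the control arrays. The groups did not overlap: the lower compost rat stood 1.48 log2 units above the higher control rat. The spots of the probe were well above background in 10 of 10 cases on each compost array, and in 0 of 10 and 5 of 10 cases on the control arrays. Single spots ran from 44.9 to 60.6 and from 61.2 to 87.2 on the compost arrays, and from 3.83 to 8.87 and from 14.0 to 33.4 on the control arrays. No spot of a control array reached the dimmest spot of a compost array, as the plot of single spots shows.

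**Figure D1:**
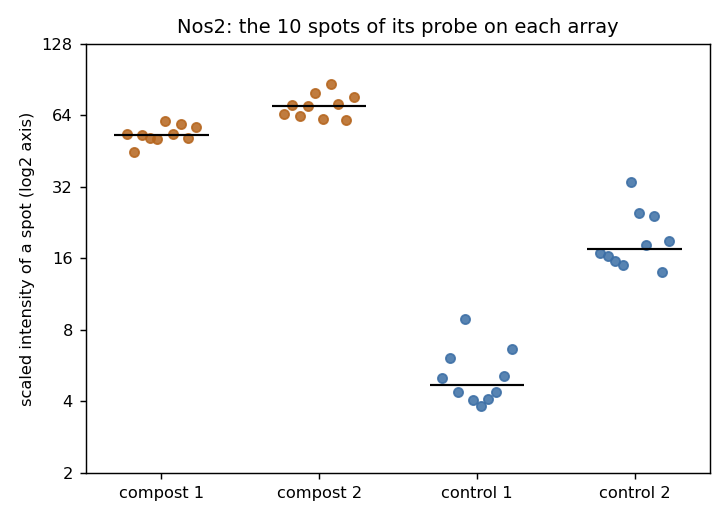
Scaled intensity (arbitrary units, log2 axis) of each of the 10 spots of the Nos2 probe on the 2 compost and the 2 control arrays, with a bar at the median of each array. Every compost spot lies at 44.9 or above and every control spot at 33.4 or below.

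Neither control array had more than 50% of the Nos2 spots well above background, so Nos2 entered the test only through the compost arrays, and its control level has only a bound. The floor of an array is the lowest signal of any probe called well above background there. Set against the floor of the control arrays, the compost mean of Nos2 was 3.26-fold the control mean. On control replicate 2 Nos2 was not called though it lay above the floor of 15.1. A level that is not called can thus exceed the floor, and the bound is approximate. For this bound control replicate 1 was raised to its array's floor of 18.4, while control replicate 2 kept its measured 19.1. The bound concerns the control level only and does not allow for the spread between rats. The measured log2 difference, over the measured control values, was 2.64 ± 0.66 (SE, n = 2 rats in each group, adjusted p = 0.9997 by limma). Its 95% interval of 0.893 to 4.38 was not adjusted for the number of probes. The compost rats differed from each other by 0.40 log2 units and the control rats by 1.91. The raw spot means before any background correction had medians of 177 and 175 on the compost arrays, and of 114 and 126 on the control arrays, with the local background of these spots between 83.0 and 102.5. Under the normexp correction of background (offset 50) the measured fold was 1.51 and the log2 difference 0.59, so the bound holds for the processed intensity only. On the processed intensity the difference was 2.84 without compost replicate 1, 2.44 without compost replicate 2 and 3.59 without control replicate 2. Leaving out control replicate 1 gave the lowest value, 1.68.

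**Figure D2:**
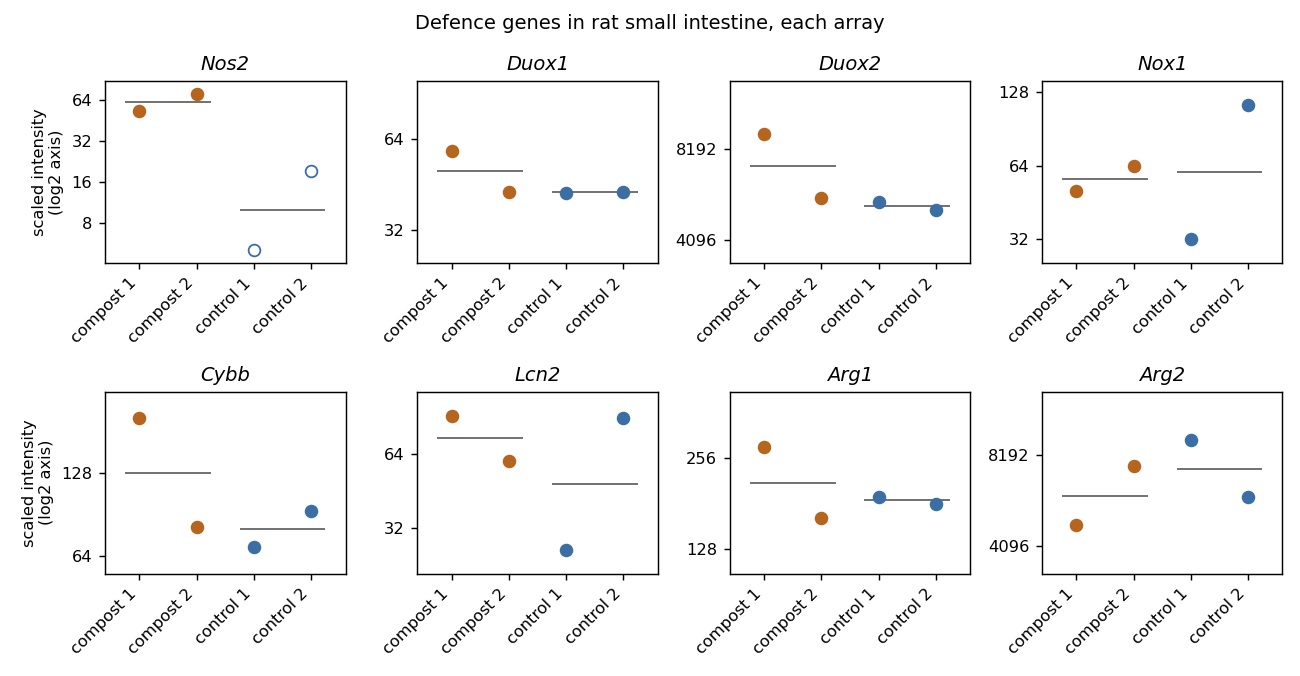
Scaled intensity (arbitrary units, log2 axis, a separate range in each panel) of the 8 measured defence genes on the 2 compost and the 2 control arrays, with a bar at the geometric mean of each group. Open points mark arrays on which the probe was not well above background. The groups of Nos2 lie apart, those of Duox2 meet closely at 5649 and 5481, and those of the other 6 genes overlap.

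Among the epithelial peroxide sources, Duox2, whose window held TGANTCA, encodes the inducible dual oxidase of the intestine. Its scaled intensity was 9181 and 5649 in the compost rats and 5481 and 5151 in the control rats. The compost rats lay above the control rats, but compost replicate 2 was above the nearer control by 0.044 log2 units only, and compost replicate 1 was alone in being high. The difference was 0.44 ± 0.29 (SE, n = 2 in each group), with a 95% interval of -0.320 to 1.198, and without compost replicate 1 it was 0.088. Duox1, its paralog, had 58.7 and 43.0 in the compost rats and 42.5 and 43.0 in the control rats. Again compost replicate 1 was high and the other 3 rats lay together. The Duox1 difference was 0.23 ± 0.23, and 0.0061 without compost replicate 1. With normexp background correction it was -0.034, so its direction depended on the background correction.

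In the GRCr8 gene table the 2 dual oxidase genes lie on either side of their maturation factor genes, in the order Duox2, Duoxa2, Duoxa1, Duox1. Duoxa1, which helps Duox1 leave the endoplasmic reticulum, was measured at 99.5 and 69.8 in compost and 97.7 and 59.6 in control, and replicate 1 was the higher of each group.

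Nox1 encodes the superoxide-producing oxidase that is known best from colon epithelium. Its scaled intensity was 50.3 and 63.7 in the compost rats, against 32.1 and 113 in the control rats. Both compost rats lay between the control rats. The control rats were 1.82 log2 units apart and the group difference was -0.090 ± 0.63 (95% interval -1.75 to 1.57). Left-out arrays turned its direction: it stood at -0.999 without control replicate 1, and leaving out control replicate 2 gave 0.82.

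Markers of colon were set beside Nox1. Of the 5 colon markers measured, 3 were lowest in control replicate 1 and highest in control replicate 2, as Nox1 was, against 5.94% of all 24313 genes tested. The carbonic anhydrase gene Car1 had 2403 and 2482 in compost and 148 and 3523 in control, and the water channel gene Aqp8 had 34.5 and 59.9 in compost and 14.6 (not well above background) and 139 in control. The third was the chloride exchanger gene Slc26a3, at 3368 and 3590 in compost and 3013 and 5114 in control. The mucin gene Muc2 ran the other way, with 455 and 418 in compost and 533 and 315 in control. Car4, another carbonic anhydrase gene, was highest in compost replicate 1, with 28090 and 26159 in compost and 13731 and 22846 in control. Summed over the 5 markers, intensity was 34351 and 32709 in compost and 17440 and 31937 in control, most of it from Car4. The ileal genes Fabp6, Slc10a2 and Cubn were well above background on all 4 arrays. So were the proximal genes Fabp1, Cybrd1 and Slc40a1, while Lct was so on the control arrays alone. The proximal gene Gata4 and the ileal gene Gpbar1 were well above background on too few arrays to be tested. The part of the gut segment in the Nox1 values was not tested.

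Cybb, with TGANTCA and the GAAA pair in its window, had a scaled intensity of 203 and 81.5 in the compost rats and of 68.9 and 93.2 in the control rats. The groups overlapped, and compost replicate 1 was alone in being high. The difference was 0.68 ± 0.49 (95% interval -0.60 to 1.97), and 0.024 without compost replicate 1. A second probe, not named Cybb but described in the files as the rat gp91phox subunit, had 662 and 355 in compost and 306 and 273 in control. On that probe the groups did not overlap (0.75 ± 0.35, unadjusted p = 0.0871 by limma, and 0.30 without compost replicate 1). Both probes were highest in compost replicate 1, and they disagreed on whether compost replicate 2 lay above the controls.

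Most markers of macrophages and dendritic cells were highest in the same rat. Of the 12 measured, 10 were highest in compost replicate 1, against 25.8% of all genes tested. The macrophage receptor gene Csf1r had 1177 and 386 in compost and 388 and 473 in control, and Adgre1, another surface marker, had 353 and 123 in compost and 139 and 166 in control. The summed intensity of the list was 274093 and 196392 in compost and 211533 and 281340 in control. Most of that sum came from the lysozyme gene Lyz2, at 212322 and 159004 in compost and 174821 and 254904 in control, which was highest in control replicate 2. The sum thus follows Lyz2 more than the rest of the list, and the cell source of Lyz2 was not tested. Mrc1, the mannose receptor gene, was highest in control replicate 1, and the other 10 markers in compost replicate 1. The share of these cells in the Cybb values was not tested.

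**Figure D3:**
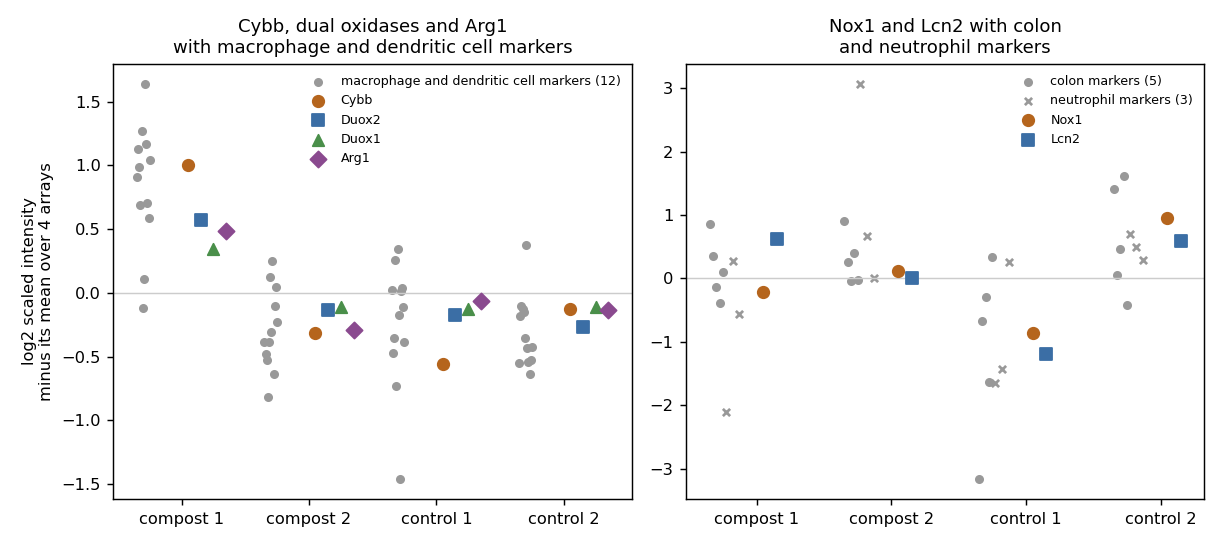
Log2 scaled intensity minus its mean over the 4 arrays, for members (coloured) and for every measured gene of marker lists (grey), on the 2 compost and the 2 control arrays. On the left, Cybb, Duox2, Duox1 and Arg1 are highest in compost replicate 1. So are 10 of 12 macrophage and dendritic cell markers, against 25.8% of all genes tested. On the right, Nox1 and Lcn2 are lowest in control replicate 1. So are 4 of 5 colon markers and 1 of 3 neutrophil markers, against 24.3% of all genes tested.

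Lcn2, with the NF-kappaB consensus in its window, had a scaled intensity of 91.8 and 59.9 in the compost rats and of 26.1 and 89.9 in the control rats. Control replicate 1 was low and the other 3 rats were within 0.61 log2 units of each other, so the groups overlapped. The difference was 0.61 ± 0.64 (95% interval -1.08 to 2.30), and it turned to -0.28 without control replicate 1. Lipocalin 2 is also stored in neutrophil granules. Of 10 neutrophil markers, 3 were measured: S100a9 had 109 and 143 in compost and 33.4 and 127 in control, S100a8 had 2.80 and 102 in compost and 3.85 and 19.6 in control (well above background on 1 array of each group), and Camp had 94.4 and 140 in compost and 168 and 171 in control. The myeloperoxidase gene Mpo and the receptor genes Csf3r and Cxcr2 were not well above background on enough arrays to be tested. The sum over the 3 markers was 206 and 384 in compost and 205 and 318 in control, and their part in the Lcn2 values was not tested.

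Arg1 encodes the cytosolic arginase of hepatocytes and of some macrophages. Its scaled intensity was 278 and 162 in the compost rats and 190 and 181 in the control rats. Compost replicate 1 was the highest rat and compost replicate 2 the lowest. The difference was 0.19 ± 0.31 (95% interval -0.62 to 1.01), and -0.19 without compost replicate 1. Of the other genes listed as hepatocyte markers, Cps1 and Serpina1 were well above background on all 4 arrays. Apoa2 was so on the control arrays alone, and albumin on too few arrays to be tested. A gene on this list need not come from hepatocytes alone. Cps1, a urea cycle gene, had 1699 and 991 in compost and 1488 and 1437 in control. Their part in the Arg1 values was not tested.

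Arg2 encodes the mitochondrial arginase found in many tissues other than liver, the intestine included. It had 4789 and 7490 in the compost rats and 9154 and 5934 in the control rats. The rats of each group lay farther apart than the groups, by 0.65 log2 units in compost and 0.63 in control. The difference was -0.30 ± 0.34 (95% interval -1.197 to 0.599), and without compost replicate 1 or without control replicate 1 it was 0.023 and 0.013. The other 2 probes whose description names arginase 2 had smaller differences, -0.16 ± 0.20 and -0.21 ± 0.27. None of the 3 had groups that lay apart.

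Counted over the members, 2 of 8 probes (Nos2 and Duox2) had groups that lay apart with compost on top and 0 of 8 with compost below, where 12.3% and 15.6% of all probes tested did so. Of these 2, Nos2 was tested through the compost arrays alone and Duox2 was apart by 0.044 log2 units. The difference was above 0 for 6 of the 8, and for 45.8% of all probes tested. Compost replicate 1 was the highest rat for 5 of the 8 (Duox1, Duox2, Cybb, Lcn2 and Arg1), against 25.8% of all genes tested. Without compost replicate 1 the differences of Duox2, Cybb and Lcn2 were 0.088, 0.024 and 0.31. That of Nos2 was then 2.84, but over control values at or near background, and Nos2 was not tested without that array. Under normexp background correction with all 4 arrays the Nos2 difference was 0.59.

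**Figure D4:**
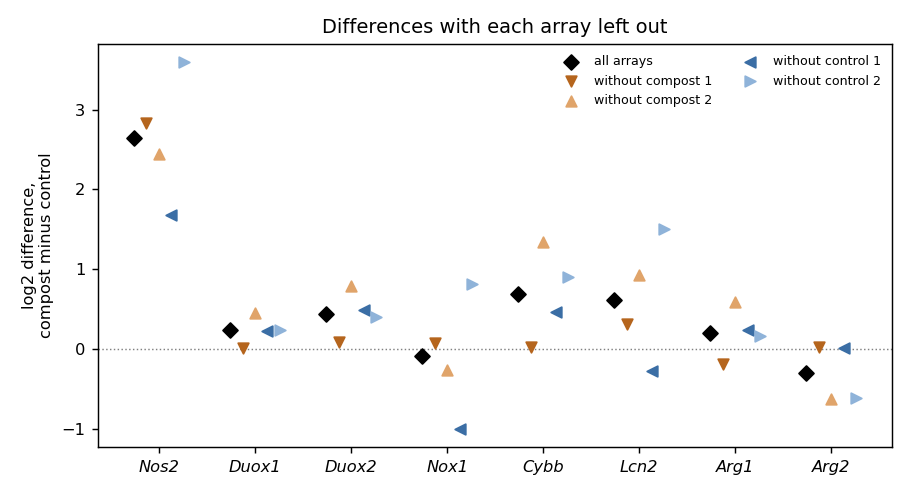
Log2 difference (compost minus control) of the 8 measured defence genes over all 4 arrays and with each array left out in turn. Nos2 lies between 1.68 and 3.59, over control values at or near background, and was not tested without either compost array. Nox1, Lcn2, Arg1 and Arg2 lie on both sides of 0.

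Lists of genes that work with the members were read by counts and medians, beside all 24313 genes tested, of which 46.1% had a difference above 0. Compost rats lay above control rats in 12.6% of those genes and below them in 15.3%. No gene of any list passed limma's test (0% of all genes in either direction).

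NADPH oxidase subunits and maturation factors had a median of 0.41. All 7 measured genes of the 11 had a positive difference, and 3 had compost rats above control rats with 0 below. These 3 were Noxo1, the organiser subunit of the Nox1 complex, Rac2, the small GTPase of the phagocyte oxidase, and Cyba, the membrane partner of Nox1 and of Cybb. Noxo1 had 3067 and 3080 in compost and 1212 and 2116 in control, a difference of 0.94 ± 0.31 (SE, n = 2 in each group), which was 0.54 without control replicate 1. Rac2 had 1619 and 1557 in compost and 1259 and 1047 in control (0.47 ± 0.19), and Cyba 17014 and 15498 in compost and 11074 and 13136 in control (0.43 ± 0.19). In all 3 the compost rats lay close together, and compost replicate 1 did not stand alone as it did for Cybb and the dual oxidases. The oxidase genes Nox3 and Nox4 did not reach the test.

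Inducers of Nos2, Duox2 and Lcn2 had a median of 0.20 over 18 measured genes of 24. In 15 the difference was positive, and in 8 the compost rats lay above the control rats with 0 below. The smallest unadjusted p-values by limma were those of Tlr2, a receptor for bacterial lipoproteins (0.00962), Ifng, which encodes interferon gamma (0.0148), and Nfkbiz, a nuclear regulator that acts with NF-kappaB on Lcn2 (0.0474). Ifng had 90.3 and 63.1 in compost and 40.9 and 39.1 in control. Tlr2 had 3258 and 3187 in compost and 1196 and 1830 in control, and Nfkbiz 1098 and 1455 in compost and 632 and 906 in control. All 3 separated the groups, with differences of 0.91 ± 0.24, 1.12 ± 0.26 and 0.74 ± 0.28 (SE) for Ifng, Tlr2 and Nfkbiz. With normexp background correction Ifng, a dim probe, was at 0.36 (unadjusted p = 0.0639 by limma), and Tlr2 and Nfkbiz were at 1.11 and 0.68. Without control replicate 1 Nfkbiz was at 0.48, and its other probe gave -0.21, so its probes disagreed. Tnf, Il6 and Il23a did not reach the test, and no probe carried the name Il17a, Il17f or Il22.

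Genes that supply arginine or cofactor for nitric oxide, or draw arginine away, had a median of -0.037, with 6 positive and 10 negative differences among 16 measured of 18. In 1 the compost rats lay above the control rats and in 2 below. Smallest p-values belonged to Srm, the spermidine synthase (0.37 ± 0.20), Oat, the ornithine aminotransferase (-0.39 ± 0.25), and Gch1, the first enzyme of tetrahydrobiopterin synthesis (-0.42 ± 0.33). Oat had 104456 and 136064 in compost and 178998 and 136232 in control, so that the nearest rats of the groups hardly differed. Gch1 had 3613 and 4021 in compost and 6810 and 3816 in control, with control replicate 1 alone in being high, and without that rat the difference was -0.0017.

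Peroxide users and removers had a median of 0.21 over 14 measured genes of 17, with 10 positive and 4 negative differences, and with 4 separated upward and 0 downward. The smallest p-values by limma belonged to the epithelial glutathione peroxidase gene Gpx2 (0.41 ± 0.21), the thioredoxin gene Txn1 (0.37 ± 0.22) and the peroxiredoxin gene Prdx2 (0.33 ± 0.22). Gpx3 had a larger difference, 0.53 ± 0.59, but its groups overlapped. Gpx2 had 8446 and 7041 in compost and 6340 and 5313 in control. Its second probe gave -0.092 and the second of Txn1 -0.15, so that both genes had probes of opposite sign. The haem peroxidase genes Mpo, Lpo and Epx did not reach the test.

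Iron withholding and siderophore genes had a median of 0.098 over 10 measured of 12, split 5 to 5, with 1 separated upward and 0 downward. That one was Tf, the transferrin gene, at 697 and 503 in compost and 375 and 443 in control (0.54 ± 0.24). Slc22a17, which encodes a receptor for lipocalin 2, had 2038 and 1212 in compost and 1325 and 1395 in control, so its groups overlapped. The calprotectin gene S100a9 (0.93 ± 0.67) and the macrophage metal transporter gene Slc11a1 (0.53 ± 0.59) overlapped too, and each turned negative without 1 array, at -0.032 without control replicate 1 and -0.32 without compost replicate 1.

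**Figure D5:**
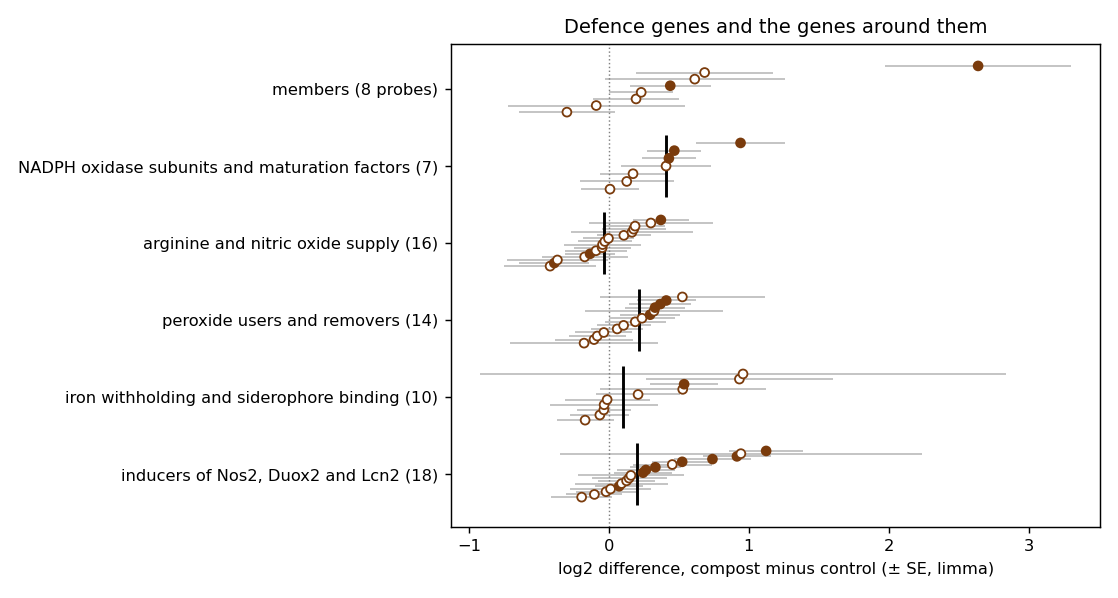
Log2 difference (compost minus control, ± SE from limma) of the 8 member probes and of the measured genes of 5 lists around them, with the number measured in brackets. Filled points mark genes whose compost and control rats do not overlap, and vertical bars mark list medians. Nos2 lies at 2.64 over control values not well above background, where only a bound holds, and with normexp background correction it was at 0.59, below Tlr2, Noxo1 and Nfkbiz at 1.11, 0.95 and 0.68. No point passed the test.

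The groups of rats lay apart for some further markers too. Over 28415 probes the compost arrays correlated at 0.9808 and the control arrays at 0.9865. Arrays of different groups correlated at 0.9811 to 0.9876, so the 2 compost arrays were no more alike than arrays of different groups. All 6 measured B and plasma cell markers of 10 had compost rats above control rats, against 12.6% of all genes tested. Of these, Ms4a1 entered the test through the compost arrays alone, so its place in this count supports nothing. Cd22 was well above background on both compost arrays but on only 1 control array. The summed intensity of the 6 markers was 9250 and 5703 in compost and 2209 and 3381 in control. All 10 measured absorptive enterocyte markers of 12 had a negative difference, where 46.1% of all genes tested had one above 0. In 7 of them compost rats lay below control rats, against 15.3% of all genes tested. Alpi and Lct, among these 7, entered the test through the control arrays alone, so their place in both counts supports nothing. The sum over the 10 markers was 1005220 and 1306320 in compost and 1837690 and 1467360 in control. General epithelial markers had a median difference of 0.079, with 5 positive and 3 negative among 8. The part of these cell types in the Nos2 values was not tested.

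Nearness of profile over the 4 arrays was described for Nox1 and Lcn2, the members with the largest range (1.82 and 1.81 log2 units) among those well above background on every array. Among 10689 named genes, the nearest to Nox1 were Neu1, Prss22 and Rnd2, at a mean absolute deviation of 0.15, 0.15 and 0.16 log2 units. Nearest to Lcn2 were Gnat2, Hoxc4 and Adamtsl4, at 0.082, 0.085 and 0.12. Adamtsl4 had 286 and 231 in compost and 86.7 and 266 in control, again with control replicate 1 low. With 4 arrays such nearness is a description only.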

How the data were processed

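Per the file headers, the authors' deposited scanner files hold a processed intensity from Agilent Feature Extraction 9.1.3.1, detrended and background-subtracted, linear and not scaled between arrays, with the raw mean intensity, the local background and flags of each spot. A value table deposited by the authors matched that intensity after rounding (largest difference 0.497%), with column medians of 102 and 73.9 for compost and 80.2 and 79.4 for control, so its scale, centring and direction are known. Control spots (1639) and outlier spots were left out, saturated spots kept. Spots of 1 probe were averaged as log2 intensity, less the 75th percentile of the array's 41012 probes. A probe was well above background on an array where more than 50% of its spots were, a rule set after the Nos2 spots had been seen, and was tested when this held on at least 2 of 4 arrays. The 2 groups were compared with lmFit and eBayes of limma 3.58.1 (R 4.3.3). Two-sided p-values were adjusted by Benjamini and Hochberg's method over 28415 probes, at 0.05. The fits were also run on simulated data. That checked only that estimates were unbiased and that large shifts were recovered more often than small ones. It does not show that 2 rats in each group suffice.

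A gene was represented by its brightest tested probe. Names came from the files and were updated through a GRCr8 gene table, used for names and gene order alone: an accession named 10835 probes, a symbol 5201, a synonym 3485, and 21491 kept the file's name. Where no control array was well above background, a bound was given: the compost mean set against the control mean after raising each control value to at least the array's lowest well-above-background signal. The members and lists were chosen with earlier results of these data known. Named genes were all members, up to 3 genes with the smallest p in each list, and the 3 nearest profiles of 2 members. Marker genes and other genes outside this rule were named after their values were seen. Replicates are taken from the labels as separate rats, and the number of arrays limits the precision.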

Additional observations from a re-analysis of the deposited data

How the results depend on the processing

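Under 13 other settings, 26 single-gene values gave 335 comparisons, of which 325 kept direction and side of the threshold, 10 turned and 0 passed. The lowest adjusted p by limma was 0.0800, for Nos2 without control replicate 2 (range for Nos2 0.0800 to 1.00). Normexp background correction turned Duox1 to -0.034, called 1 probe higher of all probes tested and separated 1 member downward. With only probes well above background on all 4 arrays, 1 member was separated upward, since Nos2 was not tested, and the iron list median was -0.012. Without a filter on dim probes the NADPH oxidase median was 0.29 and the peroxide median 0.11, and with the mean over a gene's probes the peroxide median was 0.13.

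Without each array in turn, differences ran from -0.999 to 0.82 for Nox1, -0.28 to 1.51 for Lcn2, -0.19 to 0.58 for Arg1, -0.62 to 0.023 for Arg2, -0.032 to 1.90 for S100a9, -0.32 to 1.38 for Slc11a1 and -0.47 to 0.042 for 1 of the probes described as arginase 2. Probes called ran from 0 to 2 higher and 0 to 1 lower, and members separated from 1 to 6 upward and 1 to 1 downward. Medians ran from 0.33 to 0.48 for NADPH oxidase, -0.11 to 0.083 for arginine, 0.12 to 0.20 for peroxide, -0.037 to 0.25 for iron and 0.18 to 0.42 for inducer genes. A group left with 1 array is assumed to vary like the other, and Nos2 was not tested without either compost array. The cause of these shifts was not tested, except that fewer arrays separate more readily.

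Replicate numbers are shared by the groups, but the deviations of same-numbered arrays correlated at -0.036 over 28415 probes, so the numbers were not taken as pairs. With the replicate block 0 probes were called higher and 0 lower, as without it, and Nos2 was at 2.64 ± 0.43 (SE). The setting added after the data were seen, at least 50% of spots well above background, changed none of these calls. The median of all probes ran from -0.022 to 0.016 between scalings and was -0.040 with normexp background correction. Signal over background limits Nos2 on the control arrays.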
